A study of Homo sapiens with 4 samples.

Results

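Granins and their companions in the dense-core vesicle were followed across 4 HEK293 libraries. The 10 genes, taken from 40188 genes with values, are the granins CHGA, CHGB, SCG2, SCG3, SCG5 and VGF, the prohormone convertases PCSK1 and PCSK2, and the vesicle membrane proteins PTPRN and PTPRN2. The list was chosen by the cRPKM values and counts of these same 4 libraries, in which several of its genes were known to be high in SRRM3 and SRRM4, so the differences are given as a description and no test was applied. HEK293 cells derive from human embryonic kidney. In each stable line doxycycline switched on a cassette that was empty or encoded MSI1 (Musashi 1, an RNA-binding protein), SRRM3 or SRRM4 (related splicing factors with arginine- and serine-rich stretches, known for driving neural microexons into mRNA). All 4 lines, the empty vector included, received 1 µg/mL doxycycline for 24 h in medium with tetracycline-free serum. Each group is 1 polyA-selected library of 1 line, and the labels do not say whether a line is a clone or a pool, so an effect of the transgene cannot be told apart from a difference between lines.

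Dense-core vesicles store peptide hormones and neuropeptides and release them on a calcium signal. Granins are acidic proteins that aggregate in the trans-Golgi network and help to form the granule, and several are themselves cut into peptides. PCSK1 and PCSK2 cut prohormones after paired basic residues, carboxypeptidase E (CPE) trims the exposed basic residues, and PAM amidates the peptide end. Many neurons and endocrine cells make proteins of this set. Kidney epithelial cells are not known for it. In non-neuronal cells the repressor REST binds a long motif called RE1 at many neuronal and neurosecretory genes. CREB-family factors bind the cyclic AMP response element (CRE), a motif described in several granin and convertase promoters.

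Promoter letters are shown because 3 of the genes share a motif near their start sites. The RefSeq table (GRCh38.p14) held 300-base windows, from 250 bases before to 50 after a start site, for 7 of the 10 genes, in 10 windows. The palindromic CRE TGACGTCA was present in 3 of those 10 windows, 1 each of CHGA, VGF and PCSK1, and in 1.85% of all 35116 windows in the table. It began 54, 79 and 77 bases before the RefSeq start site. The stretches that follow are written on the gene's strand with the CRE in capitals, and lie at chr14:92923036-92923109 (plus strand), chr7:101165635-101165708 (minus strand) and chr5:96433312-96433385 (minus strand). The CRE of CHGA falls inside the first exon as GENCODE draws it, while those of VGF and PCSK1 lie before the first exon of the transcript that begins there.
CHGA: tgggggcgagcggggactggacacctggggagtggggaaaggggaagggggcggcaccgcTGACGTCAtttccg
VGF: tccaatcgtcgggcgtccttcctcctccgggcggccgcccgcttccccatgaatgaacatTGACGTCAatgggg
PCSK1: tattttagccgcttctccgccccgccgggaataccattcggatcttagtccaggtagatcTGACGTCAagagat

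The shorter site TGACG, on either strand and counted also inside the palindrome, was present in 8 of the 10 windows and in 24.6% of all windows. Each of the 7 genes had it in at least 1 window, and the second windows of PCSK1 and PTPRN did not hold it. SCG3, SCG5, PTPRN and PCSK2 had this site without the palindrome.

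The RE1 motif was searched as TTCAGCACC, any 2 bases and GGACAG on both strands, with at most 2 of its 15 scored letters differing. VGF alone among the 7 genes met this rule, with 1 letter differing, at a site that overlaps the start site on the opposite strand. An RE1 outside the windows was not looked for, and CHGB, SCG2 and PTPRN2 had no window. Windows with at most 1 differing letter made up 0.0541% of the table, and those with at most 2 made up 0.188%. In SCG3 the left and right parts of the motif stood 8 bases apart, just after the start site. That arrangement was noticed by reading the letters and then searched for, as TTCAGCACC, 3 to 10 bases and GGACAGC on either strand, and 0.0285% of windows held it. Both sites are shown with the letters that match the motif in capitals, at chr7:101165557-101165577 (plus strand) and chr15:51681511-51681534 (plus strand).
VGF: gcTTCAGCACgctGGACAGcg
SCG3: TTCAGCACCcacagggcGGACAGC
A match here is a string of letters and not a bound site, and binding of REST or CREB was not measured.

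Total counts ranged from 60288244 to 63003121 per library, and a count of 3 equals at most 0.0498 CPM. MSI1, SRRM3 and SRRM4 were each highest in the library labelled for them, at 62.43, 38.53 and 63.78 cRPKM, against 8.38, 0.49 and 0.39 in the empty vector. The other lines were not alike: SRRM4 had 201 reads in the empty vector, 6 in MSI1 and 95 in SRRM3, and SRRM3 was at 1.39 cRPKM in the SRRM4 library, 2.82 times the empty vector (2.25 to 3.54). Whether the SRRM4 reads outside its own line come from the cells' own gene or from another library was not tested. The deposited cRPKM is a corrected read density per length and library size, so it can be compared between genes. Of 11 markers of HEK293 cells, 9 were at 1 cRPKM or more in the empty vector, led by VIM, KRT8 and KRT18 at 973.50, 292.95 and 141.53 cRPKM, while the kidney factors PAX2 and PAX8 were at 0.83 and 0.02. Of 12 markers of adrenal chromaffin cells, a normal home of granins, 4 were at 1 cRPKM or more in the empty vector: GATA3 at 9.57, CYB561 at 8.02, NPY at 3.19 and HAND2 at 1.30. TH and DBH, which make catecholamines, SLC18A1, which loads them, and PHOX2A had at most 3 reads in every library. None of the 12 housekeeping genes was called 2-fold in any comparison, by the rule given further on. By that rule 0.582% of all tested genes were called higher in SRRM3 over the empty vector, so 0 of 12 is near the background. The summed levels ranged over the 4 libraries from 105.13 to 129.03 cRPKM for 16 neuron markers, from 23.19 to 26.88 for the chromaffin markers, from 4.07 to 4.91 for 10 fibroblast markers and from 5.41 to 8.19 for 10 blood cell markers.

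In the empty vector line 9 of the 10 genes were below 1 cRPKM. CHGB was highest at 1.00 cRPKM, followed by CHGA, PCSK1, SCG3 and VGF at 0.76, 0.72, 0.68 and 0.44, and PTPRN2 was lowest with 1 read. The summed level of the 10 genes was 4.53 cRPKM in the empty vector, 7.31 in MSI1, 58.16 in SRRM3 and 37.79 in SRRM4. Relative to the empty vector, those sums were 1.61-fold in MSI1, 12.8-fold in SRRM3 and 8.34-fold in SRRM4. In bulk RNA a few cells with much transcript and many cells with little cannot be told apart.

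**Figure D1:**
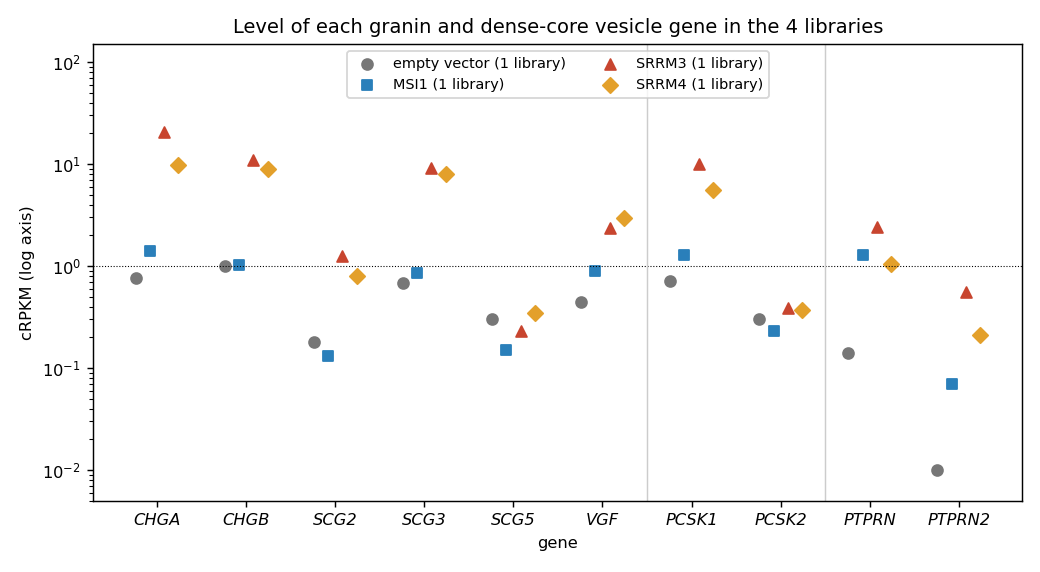
cRPKM of each gene (log axis) in each of the 4 libraries, 1 point per library, with granins at left, convertases in the middle and membrane proteins at right, and a dotted line at 1 cRPKM. SRRM3 and SRRM4 lie above the other libraries for most genes, PTPRN in MSI1 (1.29) lies above SRRM4 (1.05), and SCG5 and PCSK2 stay below 0.4 cRPKM in every library.

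The classical granins came first in both SRRM lines. CHGA, chromogranin A, the main soluble granin of endocrine granules (GRCh38 chromosome 14, 92923080 to 92935293), was at 0.76 cRPKM with the empty vector, 1.39 with MSI1, 20.81 with SRRM3 and 9.70 with SRRM4, from 95, 177, 2636 and 1178 reads. SRRM3 was thus highest and both SRRM libraries stood well above the other 2. CHGB, chromogranin B (chromosome 20, 5911430 to 5925361), was at 1.00, 1.02, 11.02 and 8.88 cRPKM in the same order. Its depth-scaled count in MSI1 was 1.01 times that in the empty vector, with a 95% counting interval of 0.806 to 1.27. Counting intervals are exact (Clopper-Pearson), compare a pair of libraries and cover counting error only; there is no replicate check of any difference.

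SCG3, secretogranin 3, which binds CHGA and cholesterol at the granule membrane (chromosome 15, 51681353 to 51721031), was at 0.68, 0.86, 9.04 and 7.94 cRPKM. Its 2 SRRM values were close, with a ratio of SRRM4 to SRRM3 of 0.878 (0.820 to 0.940). SCG2, the secretoneurin precursor (chromosome 2, 223596940 to 223602503), was at 0.18, 0.13, 1.26 and 0.80 cRPKM from 28, 20, 201 and 122 reads. SCG2 was therefore lower than CHGA, CHGB and SCG3 in every library, although its ratio over the empty vector was 7.09 (4.76 to 10.9) in SRRM3 and 4.49 (2.96 to 7.03) in SRRM4. VGF, a precursor of several secreted neuropeptides (chromosome 7, 101162509 to 101165593), was at 0.44, 0.90, 2.37 and 2.93 cRPKM. VGF was higher in MSI1 than in the empty vector by 2.04-fold (1.52 to 2.76), and it was the only one of the 10 genes whose interval lay above 1 in SRRM4 over SRRM3, at 1.24 (1.08 to 1.42).

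SCG5 stood apart from the other granins. It encodes 7B2, a small chaperone that PCSK2 needs to mature (chromosome 15, 32641676 to 32697098), and was at 0.30 cRPKM in the empty vector, 0.15 in MSI1, 0.23 in SRRM3 and 0.35 in SRRM4, from 22, 11, 17 and 25 reads. The intervals of all 3 ratios over the empty vector held 1. With so few reads those intervals reach from 0.38 to 1.5 in SRRM3 and from 0.633 to 2.18 in SRRM4, so a change within these bounds was not detectable at this depth.

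The 2 convertases differed in the same way. PCSK1 (chromosome 5, 96390415 to 96434143), which begins the cutting of prohormones in the secretory pathway, was at 0.72, 1.27, 10.07 and 5.56 cRPKM from 225, 403, 3191 and 1689 reads. PCSK2 (chromosome 20, 17226107 to 17484578), which cuts at further sites, was at 0.30, 0.23, 0.39 and 0.37 cRPKM from 86, 68, 114 and 104 reads. PCSK2 was higher than the empty vector by 1.31-fold in SRRM3 (0.980 to 1.75) and by 1.25-fold in SRRM4 (0.927 to 1.68), and both intervals held 1. The level of PCSK1 was 2.40 times that of PCSK2 in the empty vector, 5.52 times in MSI1, 25.8 times in SRRM3 and 15 times in SRRM4. PCSK2 and its chaperone SCG5 were thus both low in every library, while PCSK1 ranked among the top 4 of the 10 genes in each.

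PTPRN had a pattern of its own. It encodes IA-2, a phosphatase-like protein of the vesicle membrane and an autoantigen in type 1 diabetes (chromosome 2, 219289623 to 219309648). It was at 0.14 cRPKM in the empty vector, 1.29 in MSI1, 2.41 in SRRM3 and 1.05 in SRRM4, from 33, 303, 565 and 237 reads. The empty vector was lowest and the 3 other libraries lay above it, with MSI1 over SRRM4: the ratio of SRRM4 to MSI1 was 0.817 (0.687 to 0.972). PTPRN was the second highest of the 10 genes in MSI1 and the second lowest in the empty vector. Its paralog PTPRN2, which encodes phogrin (chromosome 7, 157539056 to 158587788), had 1, 6, 47 and 17 reads, or 0.01, 0.07, 0.56 and 0.21 cRPKM. The ratio of PTPRN2 over the empty vector was 46.4 (7.93 to 1871) in SRRM3 and 17.5 (2.74 to 732) in SRRM4, so its size is poorly fixed by a single read in the denominator.

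**Figure D2:**
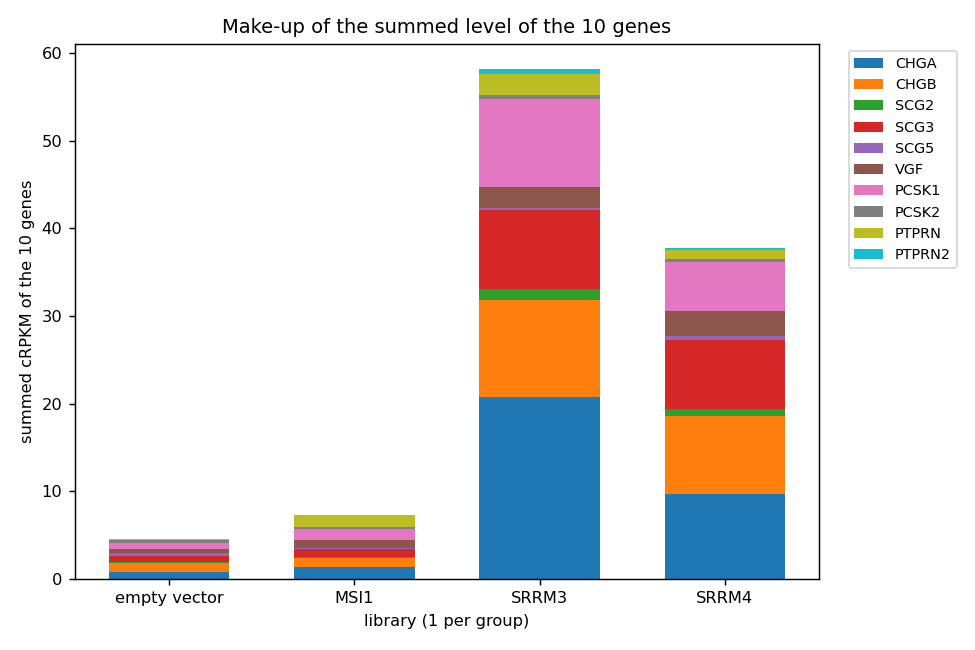
Summed cRPKM of the 10 genes in each library (bars from 0, 1 library per group), split by gene. The sums are 4.53, 7.31, 58.16 and 37.79, and CHGA holds the largest share of the SRRM3 bar.

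The make-up of the set also differed between libraries. CHGA made up 16.8% of the summed cRPKM in the empty vector, 19.0% in MSI1, 35.8% in SRRM3 and 25.7% in SRRM4. The 4 leading genes together held 69.8%, 68.0%, 87.6% and 84.9%. In all libraries but MSI1 those 4 were CHGA, CHGB, SCG3 and PCSK1, and in MSI1 they were CHGA, PTPRN, PCSK1 and CHGB. PTPRN made up 17.6% of the sum in MSI1 and 3.09% in the empty vector. SCG5 and PCSK2 each made up 6.62% in the empty vector and less than 1% in SRRM3.

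For the counts that follow, a gene was called when log2 of the ratio of cRPKM values, each raised by a pseudocount of 0.5, was at least 1 in size, among 12706 genes with a mean of at least 1 cRPKM over the 4 libraries; the shares of all tested genes leave out the transgene of the libraries compared. The pseudocount shrinks the differences of low genes. Of the 10 genes, 6 passed that filter (CHGA, CHGB, SCG3, VGF, PCSK1 and PTPRN). PTPRN passed closest to the limit with a mean of 1.22 cRPKM, and SCG2 was the nearest below it with 0.593. Only CHGB reached 1 cRPKM in the empty vector, so the other 5 passed through the libraries in which they were high, and counts over the 6 carry no weight of their own. The list was also chosen with these contrasts known, so the shares over all genes are given as background only. Shares and medians over all tested genes leave out SCG2, SCG5, PCSK2 and PTPRN2, while medians over all 10 genes include them.

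The first comparison sets induced SRRM3 against the empty vector. All 6 genes that passed were called higher there, where 0.582% of all tested genes were. Without the filter SCG2 and PTPRN2 were also past the rule, and these 8 genes had intervals above 1, where 29.6% of all tested genes did. The ratio was 27.4 for CHGA (22.3 to 34), 11.0 for CHGB (9.31 to 13.0), 13.3 for SCG3 (11.1 to 15.9), 14 for PCSK1 (12.2 to 16.1), 16.9 for PTPRN (11.9 to 24.8) and 5.38 for VGF (4.15 to 7.06). The median log2 ratio of all 10 genes was 1.90, against 0.0029 over all genes tested. VGF and SCG2 thus had the smallest of these ratios apart from SCG5 and PCSK2. With a pseudocount of 2, VGF was no longer called.

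Induced SRRM4 was compared with the same control library. All 6 genes were again called higher, where 0.551% of all tested genes were. The ratio was 12.8 for CHGA (10.4 to 15.9), 8.84 for CHGB (7.48 to 10.5), 11.7 for SCG3 (9.78 to 14), 7.73 for PCSK1 (6.72 to 8.92), 7.40 for PTPRN (5.12 to 11.0) and 6.66 for VGF (5.16 to 8.71). The same 8 genes had intervals above 1, where 23.2% of all tested genes did. SCG2, which did not pass the filter, had a log2 ratio of 0.93, just under the rule. With a pseudocount of 2, PTPRN was no longer called. The median over all 10 genes was 1.57, against -0.0035 over all genes tested.

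For induced MSI1, again with the empty vector as control, PTPRN was the only one of the 6 genes called, and 0.299% of all tested genes were called higher. Its ratio of 9.05 (6.31 to 13.4) rests on 33 reads in the empty vector, and with a pseudocount of 2 it was no longer called. CHGA, SCG3, VGF and PCSK1 were under the 2-fold rule, which includes the pseudocount, and had intervals above 1: 1.84 for CHGA (1.42 to 2.38), 1.26 for SCG3 (1.00 to 1.59) and 1.76 for PCSK1 (1.5 to 2.09), beside the 2.04 of VGF. Intervals lay above 1 for 32.3% of all tested genes, since they hold counting error only. CHGB, SCG2, SCG5, PCSK2 and PTPRN2 had intervals that held 1. The median over all 10 genes was 0.18, against 0.016 over all genes tested.

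**Figure D3:**
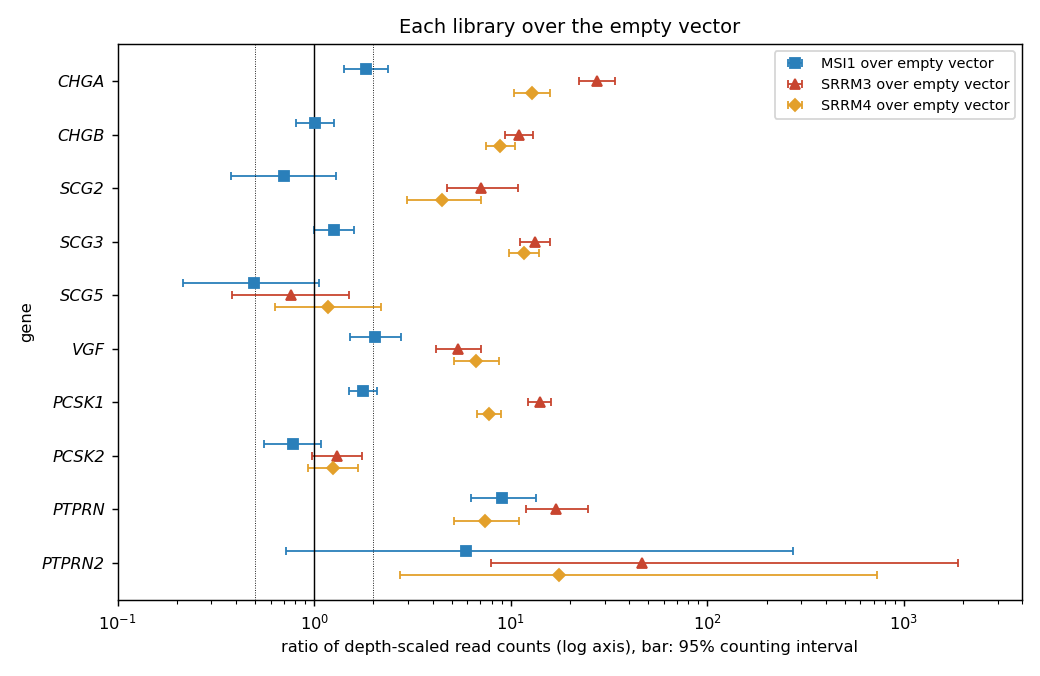
Ratio of depth-scaled read counts of the MSI1, SRRM3 and SRRM4 libraries over the empty vector (log axis) for each gene, with 95% counting intervals as bars and dotted lines at 0.5 and 2. For PTPRN all 3 intervals lie above 5, for SCG5 and PCSK2 all 3 hold 1, and for CHGA and PCSK1 the SRRM3 interval lies above that of SRRM4.

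The MSI1 library can also serve as the control, which removes the empty vector from the comparison. In SRRM3 over MSI1, 5 of the 6 genes were called higher, where 0.764% of all tested genes were, and in SRRM4 over MSI1 the same 5 genes, where 0.504% were. CHGA had ratios of 14.9 (12.8 to 17.5) and 6.96 (5.93 to 8.19). CHGB had 10.9 and 8.75, SCG3 10.5 and 9.26, PCSK1 7.93 and 4.38, and VGF 2.63 and 3.26, with VGF no longer called in either with a pseudocount of 2. PTPRN was the gene not called, with ratios of 1.87 (1.62 to 2.15) in SRRM3 and the 0.817 given above in SRRM4. Against MSI1 the intervals of PCSK2 lay above 1 in both, at 1.68 (1.23 to 2.30) and 1.60 (1.17 to 2.20), and that of SCG5 lay above 1 in SRRM4, at 2.38 (1.13 to 5.35). Both genes had fewer reads in MSI1 than in the empty vector.

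SRRM4 over SRRM3 compares the related proteins directly. Of the 10 genes, 7 had intervals below 1 (CHGA, CHGB, SCG2, SCG3, PCSK1, PTPRN and PTPRN2), VGF had one above 1, and those of SCG5 and PCSK2 held 1. Over all tested genes 30.5% had intervals below 1 and 27.1% above. CHGA, with a ratio of 0.466 (0.435 to 0.50), was the only gene called, where 0.236% of all tested genes were called lower, and it was not called with a pseudocount of 2. PTPRN had a ratio of 0.438 (0.374 to 0.510) and a log2 ratio of -0.91 with the pseudocount, PCSK1 0.552 (0.520 to 0.586), SCG2 0.633 (0.501 to 0.797) and CHGB 0.806 (0.750 to 0.866). The 10 genes were therefore not lower by one common factor: the intervals of CHGA, PCSK1 and PTPRN lay below those of CHGB and SCG3.

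**Figure D4:**
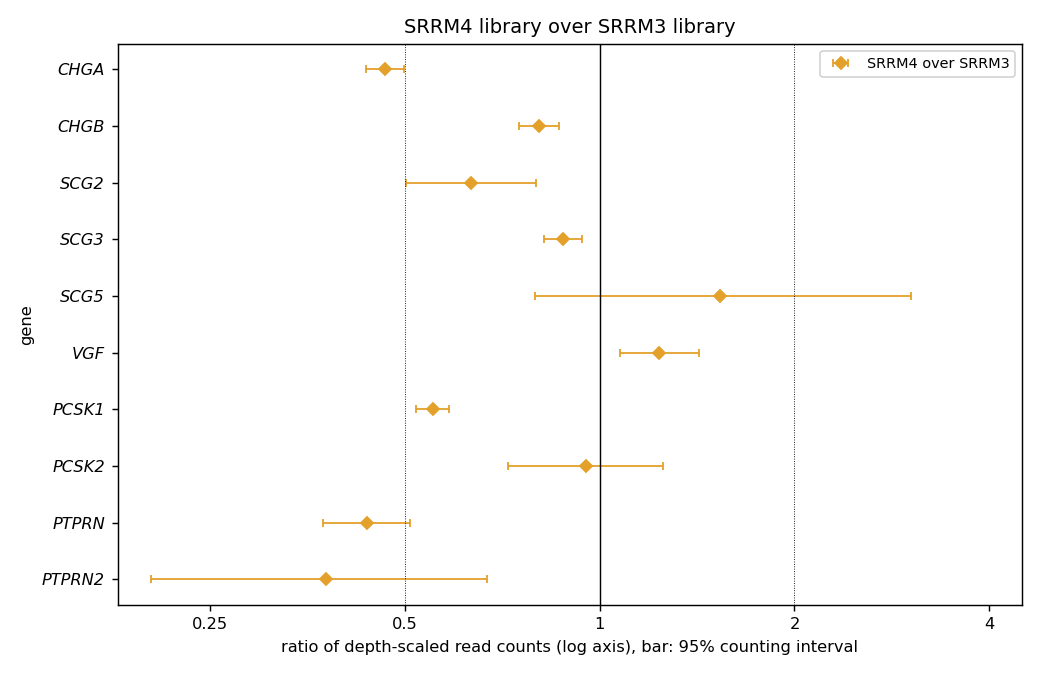
Ratio of depth-scaled read counts of the SRRM4 library over the SRRM3 library (log axis) for each gene, with 95% counting intervals as bars and dotted lines at 0.5 and 2. CHGA (0.466), PTPRN (0.438) and PCSK1 (0.552) lie left of CHGB (0.806) and SCG3 (0.878), and VGF (1.24) lies right of 1.

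Most other peptide-processing genes, 15 of 18, were at 1 cRPKM or more in the control line, where only CHGB of the 10 genes was. CPE stood at 77.54 cRPKM without a transgene and at 56.09, 76.52 and 74.89 with MSI1, SRRM3 and SRRM4. PAM was at 56.54, 60.47, 56.81 and 55.92 cRPKM, and PCSK1N, whose product proSAAS inhibits PCSK1, at 11.47, 12.40, 13.98 and 9.99. None of the 15 of 18 processing genes that passed the filter was called in any of the 6 comparisons, FURIN and the other convertases PCSK5, PCSK6 and PCSK7 among them. Against the empty vector 0.299% of all tested genes were called higher in MSI1, 0.582% in SRRM3 and 0.551% in SRRM4. So 0 of 15 is near the background. With PCSK1 as the yardstick, the level of CPE was 108 times that of PCSK1 in the empty vector, 44.2 times in MSI1, 7.60 times in SRRM3 and 13.5 times in SRRM4. The level of PCSK1N was 15.9 times that of PCSK1 in the empty vector and 1.39 times in SRRM3.

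Of 32 vesicle biogenesis genes that passed the filter, out of 33, 2 were called higher in SRRM3 and the same 2 in SRRM4. They were SYT4, a synaptotagmin of maturing granules, at 0.06, 0.03, 3.31 and 1.68 cRPKM (control, MSI1, SRRM3, SRRM4, the order kept from here on), and AP3B2, the neuronal beta subunit of the AP-3 adaptor, at 1.46, 2.21, 7.06 and 6.84. The ubiquitous AP3B1 was at 24.10, 25.66, 19.82 and 16.76. The list's median log2 ratio was 0.055 in SRRM3 and -0.034 in SRRM4. Over all tested genes 0.582% were called higher in SRRM3 and 0.551% in SRRM4. SYT4 was below 1 cRPKM in the empty vector and MSI1 and passed the filter through the SRRM libraries. The count of called genes therefore carries no weight of its own.

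Of 28 exocytosis genes that passed, out of 44, 5 were called higher in SRRM3 and in SRRM4 and none in MSI1. CPLX2, complexin 2, which clamps and primes fusion, was at 0.11, 0.11, 9.54 and 5.48 cRPKM. UNC13A, a priming factor, was at 0.12, 0.16, 3.23 and 3.02, and CPLX1 at 0.39, 0.54, 2.57 and 2.82. The other 2 were the fusion proteins STX1A, with ratios of 2.28 and 2.61, and NAPB, with 2.41 and 3.06. Under the filter, SNAP25 in both SRRM libraries and RAB3C in SRRM3 were also past the fold, at log2 ratios of 1.33 and 1.67 for SNAP25 and 1.01 for RAB3C. The list's medians were 0.072 in SRRM3 and -0.015 in SRRM4. Over all tested genes 0.582% were called higher in SRRM3, 0.551% in SRRM4 and 0.299% in MSI1. CPLX2, UNC13A and CPLX1 were below 1 cRPKM in the empty vector and MSI1 and passed the filter through the SRRM libraries. The count of called genes on this list therefore carries no weight of its own. CADPS, a priming factor of dense-core vesicles, had at most 3 reads in the empty vector, MSI1 and SRRM4.

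Among genes that passed the filter, cargo beyond the granins was not called in either SRRM line over the empty vector. Higher calls made up 0.582% of all tested genes in SRRM3 and 0.551% in SRRM4, so counts of 0 are near the background. Of 67 precursors of peptide hormones and neuropeptides, 13 passed the filter, and none was called in SRRM3 or SRRM4 over the empty vector, with medians of -0.067 and -0.14. GAL (galanin) was at 18.10, 20.87, 12.74 and 17.82 cRPKM, and NMU (neuromedin U) at 15.25, 13.39, 15.32 and 13.73. In MSI1 the tachykinin precursor TAC1 was called higher, at 5.87 cRPKM against 2.14, a ratio of 2.74 (2.28 to 3.31). Higher calls made up 0.299% of all tested genes in that comparison. With MSI1 as the control, TAC1 was called lower in SRRM3, at 0.298 (0.243 to 0.363), and in SRRM4, at 0.344 (0.283 to 0.416). NPPB, a precursor under the filter, was at 0.77, 0.81, 0.25 and 2.03 cRPKM. Its ratio over the empty vector was 0.318 (0.139 to 0.666) in SRRM3 and 2.62 (1.71 to 4.11) in SRRM4. The SRRM4 log2 ratio of NPPB was 0.99, just under the rule. None of 11 other vesicle cargo genes that passed was called in the 3 comparisons with the empty vector, which is near the background shares given here.

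**Figure D5:**
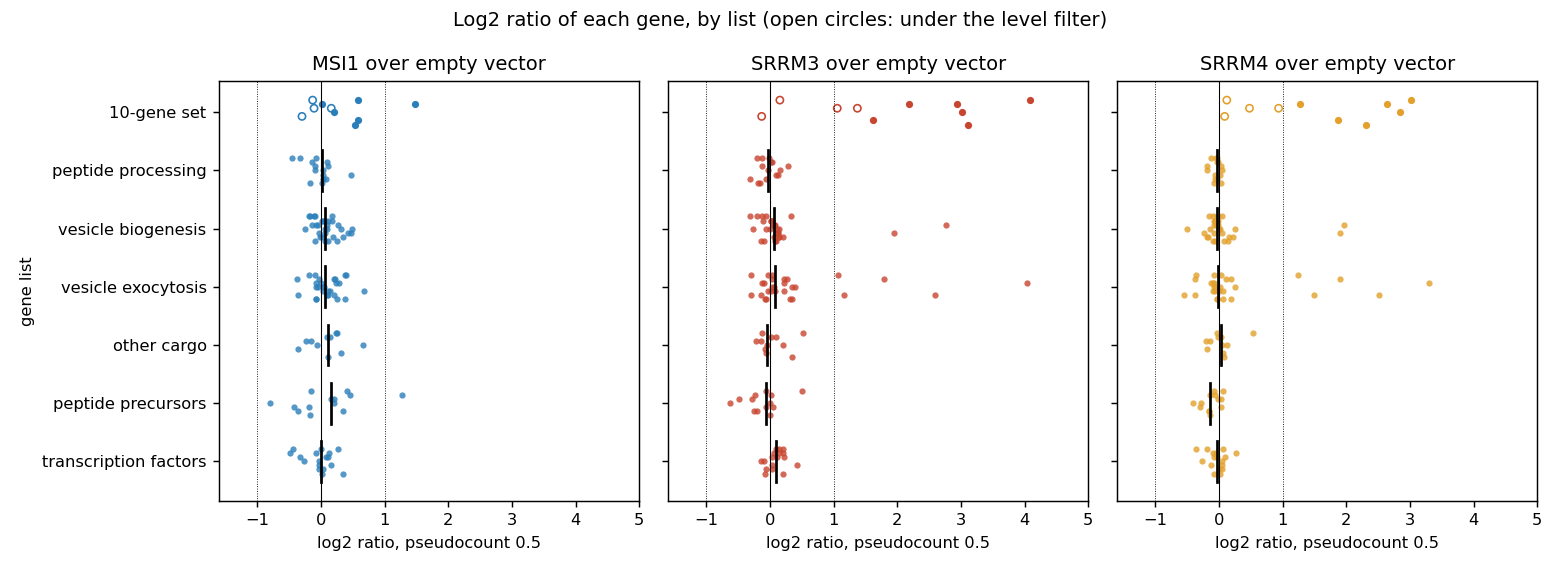
Log2 ratio over the empty vector (pseudocount 0.5) of each gene in the 10-gene set and of each gene that passed the level filter in 6 lists, 1 panel per library, with a black bar at each list's median and dotted lines at -1 and 1; open circles mark genes of the set under the filter. Past the dotted line at 1 lie 8 genes of the set in SRRM3 and 6 in SRRM4, and outside the set 2 biogenesis and 5 exocytosis genes in each.

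Regulators and markers were read beside the set. REST was at 7.93, 7.74, 7.13 and 6.50 cRPKM, with ratios over the empty vector of 0.899 (0.857 to 0.944) in SRRM3 and 0.819 (0.779 to 0.861) in SRRM4; its splice forms are not resolved here. None of 17 neuroendocrine transcription factors and CREB-pathway genes that passed was called, with INSM1 at 1.60, 1.61, 1.92 and 1.13 cRPKM. Against the empty vector 0.582% of all tested genes were called higher in SRRM3 and 0.551% in SRRM4, so 0 of 17 is near the background. Of 8 neuron markers that passed, out of 16, 2 were called higher in SRRM3, where 0.582% of all tested genes were. They were L1CAM, a neural adhesion molecule, with a ratio of 3.95 (3.4 to 4.6), and INA, a neuronal intermediate filament, with 2.09 (2.0 to 2.2). INA is also on the list of HEK293 markers. L1CAM was just under the rule in SRRM4, with a ratio of 2.68 (2.29 to 3.15) and a log2 ratio of 0.99. Among the 8 markers under the filter, STMN2 had 1, 1, 40 and 9 reads and SNAP25, also on the exocytosis list, had 2, 1, 23 and 31. SYT1, also on both lists, went the other way, with 72, 25, 25 and 50 reads. Its ratio in SRRM3 over the empty vector was 0.343 (0.208 to 0.547). DCX had no read in any library. The part of these markers in the levels of the granins was not tested.

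Genes next to the 10 were read as chromosomal context. Of the 20 nearest protein-coding neighbours, 1 on each side of each of the 10 genes, 15 passed the filter. Of these, 0 were called in any comparison with the empty vector. Over all tested genes 0.299% were called higher in MSI1, 0.582% in SRRM3 and 0.551% in SRRM4, so 0 of 15 is near the background. Whether differences spread along the chromosome was not tested. The log2 ratios of these neighbours lay between -0.41 and 0.35 in SRRM3 and between -0.16 and 0.23 in SRRM4. CHGA lies 1620 bases from ITPK1, an inositol phosphate kinase, which was at 9.32 cRPKM in the control and 12.01 with SRRM3. VGF lies 912 bases from AP1S1, a subunit of a Golgi clathrin adaptor, at 34.60 and 38.01. SCG3 lies 1979 bases from LYSMD2, at 2.21 and 2.47. PTPRN lies 2722 bases from DNAJB2, a neuronal co-chaperone, which at 13.57 cRPKM in MSI1 against 8.55 had the highest log2 ratio of these neighbours in MSI1, 0.64. CHGB lies 11873 bases from TRMT6, an RNA methyltransferase subunit, at 25.86 in the control and 19.38 with SRRM3. PCSK1 lies 91123 bases from CAST, the calpain inhibitor, at 61.07 and 62.62.

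Genes that overlap the 10 were listed with almost no reads of their own. Of 14 annotated genes that overlap any of the 10 and are in the files, antisense RNAs and the miR-153 genes inside PTPRN and PTPRN2 among them, 13 had no read and 1 had at most 1 read in a library. As the use of strand in counting is not known, reads from an overlapping transcript could have been counted for the gene itself. The length implied by count and cRPKM was at least 95.2% of the longest annotated transcript for 8 of the genes, but 73.2% for PTPRN and 28.4% for PTPRN2, so those 2 levels may rest on part of the transcript.

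The genes whose pattern was most like that of each called gene were found by the smallest Euclidean distance over its 3 log2 ratios, to the empty vector, among 11606 protein-coding genes. For CHGA they were PHF21B and CPLX2, at distances of 0.423 and 0.648. For CHGB and for SCG3 they were UNC13A and ACTL6B, part of the BAF chromatin remodeller of neurons, and CHGB and SCG3 were closer to each other than to either, at 0.278. For PCSK1 they were ACTL6B and RUNDC3A, and for VGF ASPHD1 (0.194) and AP3B2 (0.356). PTPRN had no gene as near: CRMP1, a neuronal collapsin response mediator, lay at 0.913 and CDK5R2, an activator of the neuronal kinase CDK5, at 1.07. With 3 ratios that share a control library, these distances describe likeness only.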

How the data were processed

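The authors deposited, for each of 4 libraries, a table without header of Ensembl gene ID, cRPKM (a corrected RPKM with 2 decimals) and whole-number read count. The build is GRCh38 per the submitters' processing notes; aligner, counter, annotation release and use of strand: not given in the sources used here. Over 6042 well-covered genes the deposited RPKM and counts scaled with the library totals to within 0.0935%. Of 41614 genes, 1426 without values were left out, and 39633 of the remaining 40188 had a symbol. Coordinates and gene types come from GENCODE 29, and promoters from RefSeq.

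With 1 library per group no test, p-value or edgeR model could be run. The measures are log2((cRPKM + 0.5)/(cRPKM + 0.5)), called at 1 in size among 12706 genes whose mean cRPKM reached 1, and exact 95% intervals of the count ratio. PCR duplicates are not removed by molecular identifiers, so intervals and floors cover counting error only. The procedure was tested on simulated counts that held counting error only. Those counts cannot show how it fares with variation between lines.

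The 10 genes, the lists around them and the motifs were chosen with earlier results of these data known. Beside the 10 genes and the transgenes, the naming rule took up to 3 called genes per list and comparison with the empty vector, the nearest neighbours and the 2 genes of most similar pattern. AP3B1, CADPS, CPE, CYB561, DBH, DCX, FURIN, GAL, GATA3, HAND2, INSM1, KRT8, KRT18, NAPB, NMU, NPPB, NPY, PAM, PAX2, PAX8, PCSK1N, PCSK5, PCSK6, PCSK7, PHOX2A, RAB3C, REST, SLC18A1, SNAP25, STMN2, STX1A, SYT1, TH and VIM were added after their values were seen. Alternatives were pseudocounts of 0.1 and 2, no filter or a mean cRPKM of at least 5, median centring, CPM with TMM factors, a 1.5-fold rule, and the interval required beside the 2-fold rule. TMM factors came from edgeR 4.0.16 in R 4.3.3; all else ran in Python 3.11.15 with scipy 1.17.1 for intervals, pandas 2.3.3 and numpy 2.4.6 for tables, and matplotlib 3.10.9 for figures.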

Additional observations from a re-analysis of the deposited data

How the results depend on the processing

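The number of the 10 genes called kept within 1.5 times its value under most alternatives. Requiring a mean of at least 5 cRPKM left 2 called genes (CHGA and CHGB) for each SRRM line, whichever of the empty vector or MSI1 was the control, and 0 in MSI1 over the empty vector, since fewer of the genes are tested. With a pseudocount of 2 the count was 0 in MSI1 over the empty vector and 0 in SRRM4 over SRRM3, and it fell by 1 in the other 4 comparisons: to 5 in SRRM3 over the empty vector (VGF lost), 5 in SRRM4 over the empty vector (PTPRN lost), and 4 in SRRM3 and 4 in SRRM4 over MSI1 (VGF lost in both). The 1.5-fold rule gave 2 in MSI1 over the empty vector (CHGA and PTPRN) and 3 in SRRM4 over SRRM3 (CHGA, PCSK1 and PTPRN). A pseudocount of 0.1 and CPM with TMM factors each gave 2 in SRRM4 over SRRM3, adding PTPRN. Without the filter on low values SRRM3 over the empty vector gave 8. Of 240 log2 ratios recomputed over the 10 genes, 6 comparisons and 4 alternatives, 0 of the called ones changed sign. A ratio was said to move when it shifted by more than the distance from the middle of its log2 counting interval to a bound. By that rule 72 moved, 26 with the pseudocount of 0.1, 29 with that of 2 and 17 with CPM. All 60 stayed with median centring, and the TMM factors lay between 0.990 and 1.015. CPM took the same pseudocount of 0.5 but is not per length, so that alternative also changes how far low genes are shrunk. Counting precision limits SCG5 and PTPRN2 most, with 11 to 25 and 1 to 47 reads. No paired analysis was possible because each group has 1 library.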

Other observations

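Some precursors of secreted peptides differed between the libraries, in both directions. ADM2, an adrenomedullin-family peptide that did not pass the filter on mean level, was at 0.69 cRPKM in the empty vector, 1.89 in MSI1, 0.70 in SRRM3 and 0.60 in SRRM4, with a ratio of 2.73 (2.29 to 3.27) in MSI1. CCK, the cholecystokinin precursor, had 1, 18, 4 and 3 reads in the same order. NPY was at 3.19, 4.38, 4.75 and 3.37 cRPKM, higher in MSI1 and SRRM3 than in the empty vector by 1.38-fold (1.06 to 1.78) and 1.49-fold (1.16 to 1.92). Intervals hold counting error only and lay above 1 for 32.3% of all tested genes in MSI1 and 29.6% in SRRM3. NTS (neurotensin) and STC1 (stanniocalcin 1) had MSI1 to empty vector ratios below 1, at 0.528 (0.436 to 0.637) and 0.641 (0.533 to 0.769). These genes were chosen after their values were seen, and with 1 library per group none of these differences has a replicate check.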
